A study of Homo sapiens with 12 samples.

Results

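The TGF-beta and BMP pathway genes were 51 genes chosen by symbol from the table of estimated counts, and all 51 had a row. They comprised 13 ligands, 10 receptors, 7 extracellular binding proteins or antagonists, 5 latency or processing proteins, 6 receptor-regulated or common SMADs, 5 inhibitory SMADs or feedback regulators and 5 textbook target genes. At least 10 counts over the 12 libraries were held by 50 of them, as by 17173 of 28901 named genes. GDF10 was listed at 0 counts in every library. The lowest member kept was BMP7, with counts of 0, 2 and 0 in the scramble libraries and of 12, 0 and 2 in the KD libraries with LPS.

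Ligands of this family bind pairs of serine/threonine kinase receptors, which phosphorylate receptor-regulated SMADs. SMAD2 and SMAD3 carry signals of TGF-beta and activin, SMAD1, SMAD5 and SMAD9 carry those of BMPs and several GDFs, and SMAD4 is their common partner. Secreted antagonists and latency proteins control how much ligand is free, while SMAD6, SMAD7 and membrane or nuclear feedback proteins dampen the signal. In adipose stromal cells TGF-beta is known to restrain adipocyte differentiation, and some BMPs are known to favor commitment to the adipocyte lineage.

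The libraries came from ASC52telo hTERT cells, which are human adipose stromal cells immortalized with telomerase (genotype WT), taken as adipocytes on day 14 of differentiation. Cells carried a lentiviral pLVX-shRNA2 vector with ZsGreen, expressing either scramble shRNA or shRNA against linc-ADAIN, a long intergenic non-coding RNA, and were sorted for ZsGreen before differentiation. All cells received 7 days of differentiation medium and 7 days of maintenance medium, and LPS-treated cells received bacterial lipopolysaccharide at 100 ng/mL for 4 h. The 4 groups of 3 libraries were scramble, scramble with LPS, KD and KD with LPS. The study describes the RNA-seq as 1 experiment in triplicate, so p-values measure the spread between these libraries, and an exact permutation test of 3 against 3 libraries cannot go below p = 0.1. One hairpin represents each arm, and the effect of the hairpin itself and that of losing linc-ADAIN cannot be told apart. The estimated counts have no row named LINC01230, the public name of linc-ADAIN, so the KD labels were not checked by its level.

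Levels are CPM, counts per 1e6 counts after edgeR's TMM scaling over the 12 libraries, and n is 3 libraries per group throughout. A gene was called where the adjusted p of edgeR's quasi-likelihood F test, Benjamini-Hochberg over all genes tested, was under 0.05, and every adjusted p here comes from that test. Differences are log2 fold changes followed by their standard error (SE). In units of 1e6 counts, the total on named genes was 28.4 to 53.8 per library, and scramble libraries without LPS were the deepest, at 48.1 to 53.8.

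The label of adipocyte was checked on 12 markers. ADIPOQ, which encodes adiponectin, was at 730 to 1141 CPM in scramble libraries and at 142 to 514 CPM in KD libraries without LPS, and LPL, LEP and SLC2A4 were at most at 2.36 CPM in any library. Summed over the 12 markers, levels were 3382 to 4599 CPM in scramble, 3862 to 4417 CPM in scramble with LPS, 699.8 to 1982 CPM in KD and 553.9 to 1254 CPM in KD with LPS. Without LPS, 8 of the 12 markers were lower in KD and 0 were higher, and with LPS 9 were lower and 0 higher. The lowest sum without LPS was that of KD replicate 3. Of 8 stromal markers DPP4 (log2 fold change 2.08) and PDGFRA (0.26) were higher in KD without LPS, THY1 (-2.37), ENG (-1.36) and PDGFRB (-0.90) were lower, DLK1 was listed at 0, and their sum was 2987 to 3062 CPM in scramble and 2287 to 2341 CPM in KD. Of 6 proliferation markers 3 were higher in KD without LPS and 0 lower, with sums of 36.05 to 58.72 CPM in scramble and 59.32 to 81.92 CPM in KD. With LPS 1 of the 6 was higher in KD and 0 lower. Of the leukocyte list CD163 was higher in KD (3.99) and CD68 lower (-0.78), with PTPRC, ITGAM and LYZ at most at 0.481 CPM in any library, and of the 4 endothelial markers VWF was lower in KD (-2.12) with CDH5 at most at 0.0864 CPM. KDR, of the same list, was at 0 to 0.209 CPM in scramble and 0 to 1.06 CPM in KD (not called, adjusted p = 0.164), and with LPS at 0.0469 to 0.198 CPM in scramble and 2.02 to 3.94 CPM in KD, called higher (adjusted p = 3.35e-05). The part of these markers in the KD results that follow was not tested. In bulk RNA, fewer cells of a type and less RNA per cell cannot be told apart.

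Promoter windows of SMAD6, TGFBI, GREM1, BAMBI, FST and ID2 were examined for display, and sequence is shown for the 4 that held a match. Of these 4, SMAD6 and TGFBI fell in KD, and GREM1 and BAMBI rose. RefSeq promoters matched 46 of the 51 members on GRCh38.p14, and each line gives the 250 bases before the transcription start, 5′ to 3′ on the plus strand. Capitals mark matches to SMAD-related motifs searched on both strands: GTCTAGAC and GGCGCC, which read the same on either strand, and CAGACA with its reverse TGTCTG. No match printed here overlaps another. The SMAD6 window is chr15:66701986-66702235, that of TGFBI is chr5:136028738-136028987, that of the first GREM1 start is chr15:32717754-32718003 and that of BAMBI is chr10:28677271-28677520.
SMAD6: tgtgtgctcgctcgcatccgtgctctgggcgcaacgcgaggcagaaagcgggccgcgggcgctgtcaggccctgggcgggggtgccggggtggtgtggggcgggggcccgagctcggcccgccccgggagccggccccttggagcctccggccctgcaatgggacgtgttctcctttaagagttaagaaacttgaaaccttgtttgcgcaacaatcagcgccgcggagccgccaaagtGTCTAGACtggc
TGFBI: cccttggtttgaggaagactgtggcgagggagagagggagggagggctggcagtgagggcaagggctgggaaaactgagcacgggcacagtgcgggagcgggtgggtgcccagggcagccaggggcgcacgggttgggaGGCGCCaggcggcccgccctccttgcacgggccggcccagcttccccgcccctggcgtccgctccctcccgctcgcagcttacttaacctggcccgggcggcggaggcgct
GREM1: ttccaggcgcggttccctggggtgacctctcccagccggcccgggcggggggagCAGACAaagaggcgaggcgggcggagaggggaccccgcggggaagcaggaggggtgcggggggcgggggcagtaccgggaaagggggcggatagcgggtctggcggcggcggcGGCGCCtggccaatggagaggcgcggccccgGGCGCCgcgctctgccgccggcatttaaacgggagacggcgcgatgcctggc
BAMBI: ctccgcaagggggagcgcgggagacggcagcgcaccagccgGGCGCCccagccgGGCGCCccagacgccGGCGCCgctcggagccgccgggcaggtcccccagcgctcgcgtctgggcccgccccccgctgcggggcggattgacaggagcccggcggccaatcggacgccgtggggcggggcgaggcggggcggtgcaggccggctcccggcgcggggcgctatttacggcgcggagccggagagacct
GTCTAGAC was present 12 bases before the start of SMAD6 and in 0.182% of 35116 RefSeq promoter windows, and SMAD6 was the 1 member of 46 that held it. GGCGCC, held by 16.4% of windows and by 21 members, occurred 111 bases before the start of TGFBI, 83 and 52 bases before that of GREM1, and 209, 196 and 181 bases before that of BAMBI. CAGACA, held by 13.6% of windows and by 12 members, occurred 196 bases before the start of GREM1. A second GREM1 start has its window at chr15:32718234-32718483, which held none of these letters, nor did the windows of FST and ID2. A consensus NF-kB site, searched in the same way, was in 0.179% of windows and in 0 members. The shares count each window, while a member with several windows was counted once if any of them held the match. The shares of windows and the numbers of members are therefore not like for like. These matches describe letters in the window and say nothing of binding.

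Per kb of canonical transcript, the scramble cells without LPS held far more of some members than of others of the same role. Among ligands INHBA, the activin A subunit, stood at 95.95 ± 13.8 CPM per kb and TGFB1 at 37.2 ± 3.32 (SD), while TGFB3 followed at 3.92 ± 0.186 and GDF5 was at 0.186, BMP4 at 0.00698 and BMP7 at 0.00315 CPM per kb. TGFBR2, the type II receptor of TGF-beta, led the receptors at 158.6 ± 8.43 CPM per kb, followed by TGFBR3 or betaglycan at 21.1 ± 4.09, ACVR1 at 17.8 ± 0.332 and TGFBR1 at 17.2 ± 0.585, which do not differ beyond the spread of TGFBR3. FSTL1, a secreted follistatin-like glycoprotein, led the extracellular proteins at 274.6 ± 18.4 CPM per kb and CHRDL1 followed at 109.5 ± 12.6. GREM1 was at 33.9 CPM per kb on a canonical transcript of 14575 bases, against 3860 for CHRDL1. Not divided by length, GREM1 was at 494 CPM and CHRDL1 at 422.7 CPM, so their order depends on these lengths. Of the SMADs that carry signal SMAD3 was the highest per kb at 19.0 ± 1.72. SMAD2 was at 1.70 CPM per kb on a canonical transcript of 34626 bases, against 6464 for SMAD3, so its place depends on that length. TGFBI, a secreted matrix protein named for its induction by TGF-beta, was the highest of all members at 1006 ± 155 CPM per kb.

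**Figure D1:**
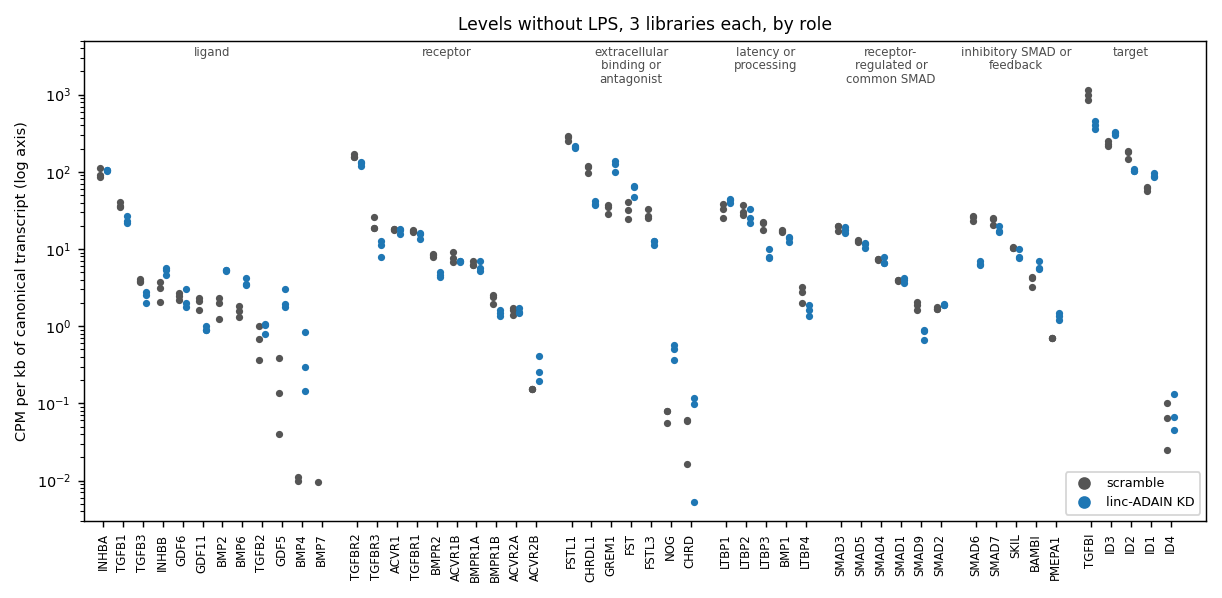
CPM per kb of canonical transcript (log axis) of 50 members in the 3 scramble (grey) and 3 KD (blue) libraries without LPS, grouped by role and ordered by the scramble mean, with each point 1 library and values of 0 or under 0.003 not drawn. The scramble means reach from 1006 for TGFBI to 0.00698 for BMP4 and 0.00315 for BMP7, and the value of GREM1 rests on a canonical transcript of 14575 bases.

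The comparison of KD with scramble asked which of these genes differ between cells with the linc-ADAIN hairpin and cells with the scramble hairpin. Without LPS, 13 of the 49 members tested were higher in KD and 18 were lower, against 12.1% higher and 15.1% lower among all 16217 genes tested. A difference of at least 2-fold beside the call was held by 13 members, against 7.77% of all genes. The median log2 fold change was -0.11 over the members and 0.02 over all genes. With LPS, 11 of 50 members were higher and 17 lower, against 12.7% and 14.2% of 15981 genes, and 12 members passed at least 2-fold, against 8.48%. The median with LPS was 0.00 over the members and 0.03 over all genes. Scaled by library size alone, the split became 15 higher and 15 lower without LPS and 16 higher and 15 lower with LPS, and the median of all genes moved to 0.11 with LPS and from 0.02 to 0.13 without.

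These 2 comparisons share no library. Of the members, 23 were called in both, 8 higher and 15 lower in both, which is 74.2% of the calls without LPS and 82.1% of those with LPS, and 0 went in opposite directions. Over all genes the shared calls were 68% and 70%. Without KD replicate 3, the library lowest in adipocyte markers, 13 members were higher and 19 lower without LPS. Every KD library was below every scramble library in the summed markers (at most 1982 against at least 3382 CPM). Leaving out KD replicate 3 therefore cannot bear on the part of these markers, which was not tested.

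**Figure D2:**
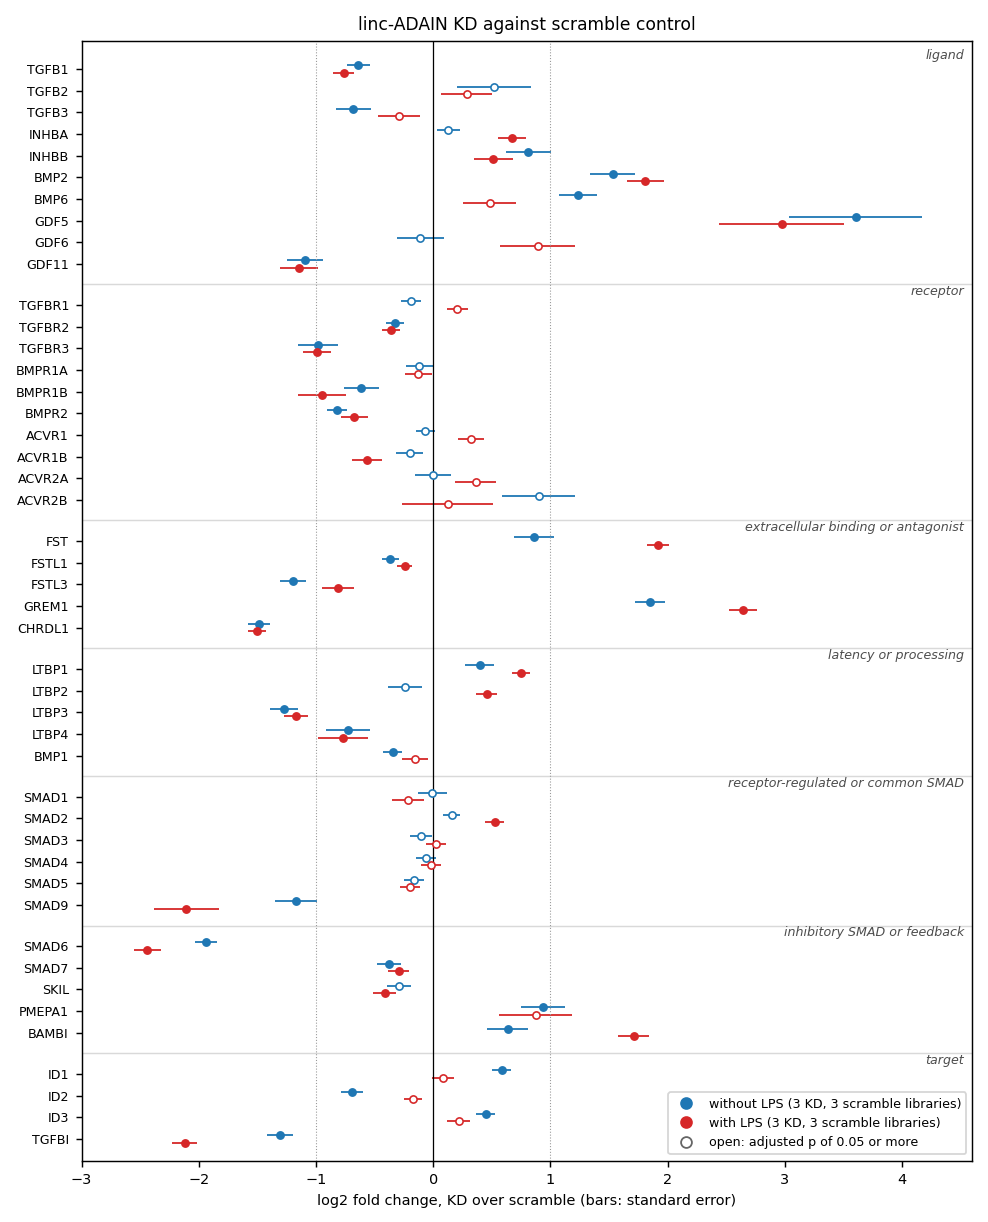
Log2 fold change of KD over scramble for 45 members by role, without LPS (blue) and with LPS (red), with bars of 1 standard error, filled points where the adjusted p is under 0.05 and dotted lines at a 2-fold difference. GREM1, FST, GDF5 and BMP2 lie to the right in both comparisons, and SMAD6, SMAD9, CHRDL1 and TGFBI lie to the left in both. BMP4, BMP7, CHRD, GDF10, ID4 and NOG, which held few or no counts, are not drawn. Of these, BMP4 was called higher in both comparisons and NOG without LPS.

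Among the ligands, BMP2, BMP4 and GDF5 rose in KD in both comparisons and GDF11 and TGFB1 fell in both. BMP2, a BMP known for inducing bone and for acting on stromal commitment, stood at 8.11, 7.00 and 4.40 CPM in scramble and at 19.0, 18.4 and 18.9 CPM in KD. With LPS it stood at 5.83, 5.52 and 4.62 CPM in scramble and at 17.2, 17.4 and 21.4 CPM in KD. All KD libraries were above all scramble libraries, with log2 fold changes of 1.53 (SE 0.19, adjusted p = 9.31e-05) without LPS and 1.81 (SE 0.161, adjusted p = 1.78e-06) with LPS.

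BMP4, another BMP known in adipocyte commitment, was near absent from scramble cells, with counts of 1, 0 and 1 without LPS and of 0, 1 and 0 with LPS. KD libraries held 56, 15 and 23 counts without LPS and 37, 53 and 19 with LPS. Scaled for depth, the ratio of the summed counts was 55.3 without LPS (95% counting interval 14.9 to 463, adjusted p = 0.00459) and 111 with LPS (19.5 to 4410, adjusted p = 0.00169), intervals that cover counting error only. GDF5, a growth factor of joint and cartilage, was also low, with 5, 17 and 42 counts in scramble and 145, 247 and 289 in KD without LPS. With LPS it held 11, 11 and 10 counts in scramble and 47, 113 and 90 in KD. No KD library of GDF5 overlapped a scramble library, and its log2 fold changes were 3.61 (SE 0.567, adjusted p = 0.000528) and 2.97 (SE 0.53, adjusted p = 0.000824).

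BMP6, a BMP known also as a regulator of hepcidin, was higher in KD without LPS, at 12.8, 13.5 and 15.9 CPM against 6.95, 6.03 and 5.01 CPM in scramble (log2 fold change 1.24, SE 0.162, adjusted p = 0.000142). With LPS it was at 5.29, 7.83 and 7.87 CPM in KD and 5.98, 4.56 and 4.48 CPM in scramble, groups that overlap, and the difference of 0.48 was not called (adjusted p = 0.149). The KD effects of BMP6 without and with LPS were not shown to differ from each other (interaction -0.75, SE 0.279, adjusted p = 0.274).

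GDF11, a ligand that signals through activin receptors, fell from 18.4, 14.1 and 20.3 CPM in scramble to 7.89, 7.83 and 8.94 CPM in KD. With LPS it stood at 15.0, 15.5 and 18.1 CPM in scramble and at 7.64, 8.26 and 6.01 CPM in KD. The groups did not overlap, at -1.09 (SE 0.154, adjusted p = 0.000236) and -1.14 (SE 0.163, adjusted p = 0.000133). TGFB1 fell by 0.64 without LPS (adjusted p = 0.000463) and by 0.76 with LPS (adjusted p = 3.29e-05) on the log2 scale, and TGFB3 fell by 0.68 without LPS (adjusted p = 0.00494) while its -0.29 with LPS was not called (adjusted p = 0.267). INHBB, the activin B subunit, rose by 0.81 without LPS (adjusted p = 0.00768) and by 0.51 with LPS (adjusted p = 0.0366), and INHBA rose by 0.67 with LPS (adjusted p = 0.000761). The call of INHBB with LPS was lost without scramble LPS replicates 1 or 2 or KD LPS replicates 2 or 3, with adjusted p of 0.0629 to 0.134. TGFB2 was not called in any comparison.

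GDF6, a BMP-like ligand, was at 9.13, 9.89 and 8.16 CPM in scramble and at 7.40, 6.52 and 11.2 CPM in KD without LPS, where the groups overlap. With LPS it lay at 2.22, 2.41 and 4.10 CPM in scramble and at 3.71, 5.25 and 7.35 CPM in KD, a log2 difference of 0.89 that was not called (adjusted p = 0.0566). It passed at 0.0249 without scramble LPS replicate 3, at 0.0272 without KD LPS replicate 1 and in DESeq2 at 0.0406. With the replicate number as a block in the fit it passed at 0.021.

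Each called receptor was lower in KD, 4 of 10 without LPS and 5 of 10 with LPS, beside 15.1% and 14.2% of all genes called lower, and none passed 2-fold. TGFBR3, a co-receptor that presents TGF-beta, was at 117, 120 and 164 CPM in scramble and at 81.0, 72.2 and 49.7 CPM in KD, a difference of -0.98 (SE 0.17, adjusted p = 0.00106), and it differed by -0.99 with LPS (adjusted p = 2.42e-05). BMPR2, the type II receptor of BMPs, was at 105, 101 and 93.7 CPM in scramble and at 52.3, 61.5 and 55.5 CPM in KD, a difference of -0.82 (SE 0.0855, adjusted p = 2.37e-05), and of -0.67 with LPS (adjusted p = 0.000745). No KD library of TGFBR3 or BMPR2 reached a scramble library in either comparison. BMPR1B, a type I BMP receptor, fell by 0.61 (adjusted p = 0.00936) and 0.95 (adjusted p = 0.00347), and TGFBR2 fell by 0.33 (adjusted p = 0.00731, and 0.0555 by library size alone) and 0.36 (adjusted p = 0.00285). ACVR1B, a type I activin receptor, fell with LPS by 0.56 (adjusted p = 0.00479). TGFBR1, BMPR1A, ACVR2A and ACVR2B were not called in any comparison, and ACVR1 differed by 0.32 with LPS at adjusted p = 0.0502.

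The extracellular proteins held large differences in both directions. GREM1, or gremlin, which binds BMP2 and BMP4 and keeps them from their receptors, was at 547, 517 and 418 CPM in scramble and at 1459, 1855 and 2022 CPM in KD. With LPS it was at 278, 212 and 257 CPM in scramble and at 1372, 1488 and 1801 CPM in KD. The groups lay far apart, at 1.85 (SE 0.127, adjusted p = 7.97e-07) without LPS and 2.64 (SE 0.118, adjusted p = 3.22e-09) with LPS. FST, or follistatin, which binds activins, was at 74.4, 93.8 and 55.6 CPM in scramble and at 146, 149 and 110 CPM in KD. With LPS it was at 16.9, 18.0 and 17.6 CPM in scramble and at 67.6, 63.7 and 67.1 CPM in KD. Every KD library exceeded every scramble library in its condition, at 0.86 (SE 0.167, adjusted p = 0.00227) and 1.92 (SE 0.0937, adjusted p = 6.38e-09).

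NOG, or noggin, another BMP antagonist, rose from 8, 8 and 5 counts in scramble to 34, 38 and 44 in KD without LPS (log2 fold change 2.73, SE 0.693, adjusted p = 0.0117). With LPS it held 6, 1 and 3 counts in scramble and 18, 32 and 3 in KD, where KD LPS replicate 3 lay within the scramble range, and the difference was not called (adjusted p = 0.189). CHRD, or chordin, held at most 17 counts in a library and was not called.

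CHRDL1, a chordin-like BMP antagonist, was lower in KD. It stood at 368, 440 and 460 CPM in scramble and at 142, 160 and 149 CPM in KD, and with LPS at 422, 477 and 480 CPM against 160, 167 and 158 CPM. Both differences were close in size, at -1.48 (SE 0.0948, adjusted p = 4.97e-07) and -1.51 (SE 0.0769, adjusted p = 8.95e-09). FSTL3, a follistatin-like binder of activins and myostatin, was at 66.8, 82.2 and 62.3 CPM in scramble and at 32.1, 31.9 and 28.1 CPM in KD. The values with LPS were 40.8, 60.5 and 46.4 CPM in scramble and 29.2, 29.9 and 24.8 CPM in KD. Its groups did not overlap, at -1.19 (SE 0.111, adjusted p = 8.95e-06) and -0.81 (SE 0.138, adjusted p = 0.000581). FSTL1, at 1445 to 1649 CPM in scramble without LPS, fell by 0.37 (adjusted p = 0.00253) and with LPS by 0.24 (adjusted p = 0.01, and 0.0652 by library size alone).

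Of the latency and processing proteins, LTBP3 and LTBP4, which hold latent TGF-beta in the matrix, fell and LTBP1 rose. LTBP3 was at 106, 108 and 85.6 CPM in scramble and at 37.7, 37.3 and 48.7 CPM in KD, and with LPS at 83.8, 105 and 89.97 CPM against 37.2, 42.0 and 44.5 CPM. The groups did not overlap, at -1.27 (SE 0.121, adjusted p = 1.12e-05) and -1.17 (SE 0.104, adjusted p = 1.82e-06). LTBP4 differed by -0.72 (adjusted p = 0.0132) and -0.77 (adjusted p = 0.0166), and LTBP1 by 0.40 (adjusted p = 0.0294) and 0.75 (adjusted p = 1.05e-05). LTBP2, a matrix protein of this family that is not known to bind latent TGF-beta, was at 142, 127 and 126 CPM in scramble with LPS and at 162, 193 and 187 CPM in KD with LPS, a rise of 0.46 (SE 0.0881, adjusted p = 0.00153). Without LPS its groups overlap (-0.24, adjusted p = 0.246, and 0.0294 without KD replicate 3). BMP1, a protease that cleaves procollagens and chordin, fell by 0.35 without LPS (adjusted p = 0.00943, and 0.0528 without scramble replicate 2). The call of LTBP1 without LPS was lost without scramble replicates 2 or 3 or KD replicates 2 or 3 (adjusted p of 0.0677 to 0.0834). That of LTBP4 was lost without scramble replicate 2 or KD replicate 2 in the comparison without LPS (0.0506 to 0.0762), and without scramble LPS replicates 2 or 3 or KD LPS replicates 1 or 3 with LPS (0.0561 to 0.0801).

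SMAD9 was the only SMAD of the receptor-regulated and common group that was called lower in KD in the edgeR comparisons. It stood at 10.4, 11.3 and 8.92 CPM in scramble and at 3.66, 5.03 and 4.84 CPM in KD. With LPS it stood at 10.97, 7.56 and 8.25 CPM in scramble and at 1.75, 1.61 and 2.92 CPM in KD. KD libraries lay below scramble libraries throughout, at -1.17 (SE 0.181, adjusted p = 0.000484) and -2.11 (SE 0.275, adjusted p = 6.1e-05). SMAD2 rose by 0.52 with LPS (adjusted p = 0.000257). SMAD1, SMAD3, SMAD4 and SMAD5 were not called in either KD comparison, with log2 fold changes between -0.21 and 0.02.

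SMAD6, the inhibitory SMAD that acts mainly on BMP signaling and is itself a known BMP target, had the lowest fold change of all members in both KD comparisons. It was at 104, 87.3 and 98.5 CPM in scramble and at 23.8, 26.8 and 24.7 CPM in KD. With LPS it was at 60.0, 58.1 and 56.4 CPM in scramble and at 11.4, 11.4 and 9.35 CPM in KD. The groups lay far apart, at -1.94 (SE 0.0929, adjusted p = 9.68e-08) and -2.44 (SE 0.112, adjusted p = 3.72e-09). BAMBI, a pseudoreceptor that dampens TGF-beta and BMP signals, rose from 7.20, 5.38 and 7.31 CPM in scramble to 11.9, 9.54 and 9.38 CPM in KD (0.64, SE 0.176, adjusted p = 0.018). With LPS it rose from 7.70, 9.31 and 8.23 CPM to 25.3, 28.2 and 28.9 CPM (1.71, SE 0.13, adjusted p = 3.62e-07). The call of BAMBI without LPS was lost without scramble replicate 2 (adjusted p = 0.0841) or KD replicate 1 (0.0736). PMEPA1, a TGF-beta-induced inhibitor of SMAD2 and SMAD3, rose by 0.94 without LPS (adjusted p = 0.00255), and its 0.87 with LPS was not called (adjusted p = 0.0548).

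SMAD7, the inhibitory SMAD of TGF-beta signaling, differed by -0.38 (adjusted p = 0.0156) and -0.29 (adjusted p = 0.0261). Scaled by library size alone SMAD7 was not called in either (0.071 and 0.111), nor without scramble replicates 1 or 2 or KD replicates 1 or 2 in the comparison without LPS (0.0523 to 0.0735), nor without scramble LPS replicates 2 or 3 or KD LPS replicate 3 with LPS (0.0639 to 0.106). SKIL, a nuclear repressor of SMAD complexes, fell by 0.41 with LPS (adjusted p = 0.00614).

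The target genes went in different directions. TGFBI was at 3163, 2324 and 2697 CPM in scramble and at 1094, 980 and 1226 CPM in KD, and with LPS at 3928, 2806 and 3309 CPM against 776, 723 and 816 CPM. KD libraries lay below scramble libraries throughout, at -1.31 (SE 0.114, adjusted p = 5.33e-06) and -2.12 (SE 0.107, adjusted p = 7.83e-09). The ID genes encode inhibitors of helix-loop-helix factors and are textbook BMP targets. ID2 was at 232, 241 and 192 CPM in scramble and at 135, 142 and 134 CPM in KD without LPS (-0.69, SE 0.0911, adjusted p = 0.000142). With LPS it was at 230, 233 and 237 CPM in scramble and at 193, 207 and 220 CPM in KD, where the groups do not overlap and the difference of -0.17 was not called (adjusted p = 0.109). ID1 rose by 0.59 without LPS (adjusted p = 0.000225), from 55.1 to 63.1 CPM in scramble to 84.8 to 94.0 CPM in KD, and ID3 rose by 0.45 (adjusted p = 0.00141). With LPS neither was called (0.09, adjusted p = 0.567, and 0.22, adjusted p = 0.121). ID4 held at most 30 counts in a library and was not called.

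**Figure D3:**
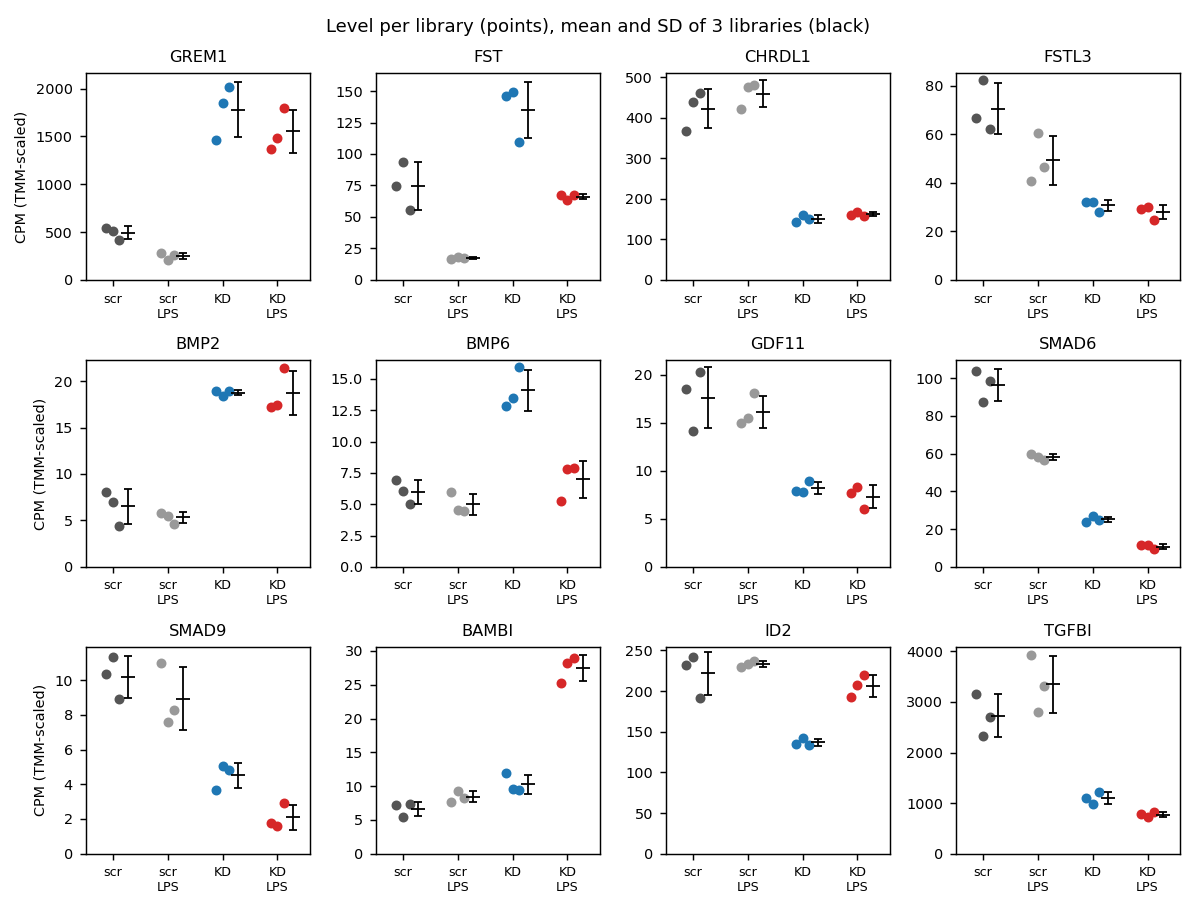
Level in CPM of 12 members in each of the 3 libraries of the 4 groups (points, linear axes from 0) with the mean and SD in black. GREM1, FST and BMP2 are higher in KD with and without LPS, CHRDL1, SMAD6 and TGFBI are lower in both, and BAMBI is highest in KD with LPS at 25.3 to 28.9 CPM.

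The comparison of LPS with no LPS asked how the pathway genes respond to a short inflammatory stimulus, in scramble cells and in KD cells. In scramble cells 3 of the 48 members tested were higher with LPS and 13 lower, against 5.9% and 8.38% of 15920 genes, and 3 passed at least 2-fold, against 2.68%. In KD cells 6 of 50 were higher and 9 lower, against 5.32% and 6.03% of 16169 genes, and 6 passed at least 2-fold, against 2.25%, a count of 3 without KD replicates 2 or 3 or KD LPS replicates 1 or 2. Scaled by library size alone the split in KD cells was 3 higher and 12 lower. The median was -0.14 over the members in scramble cells and 0.02 over all genes, and -0.15 and 0.01 in KD cells. Called in both were 6 members, all in the same direction (2 higher, 4 lower), which is 37.5% of the calls in scramble and 40% of those in KD. Over all genes the shared calls were 46.9% and 58.2%. Without scramble replicate 2 the members called in scramble cells numbered 9, and without KD replicate 3 those in KD cells numbered 9.

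**Figure D4:**
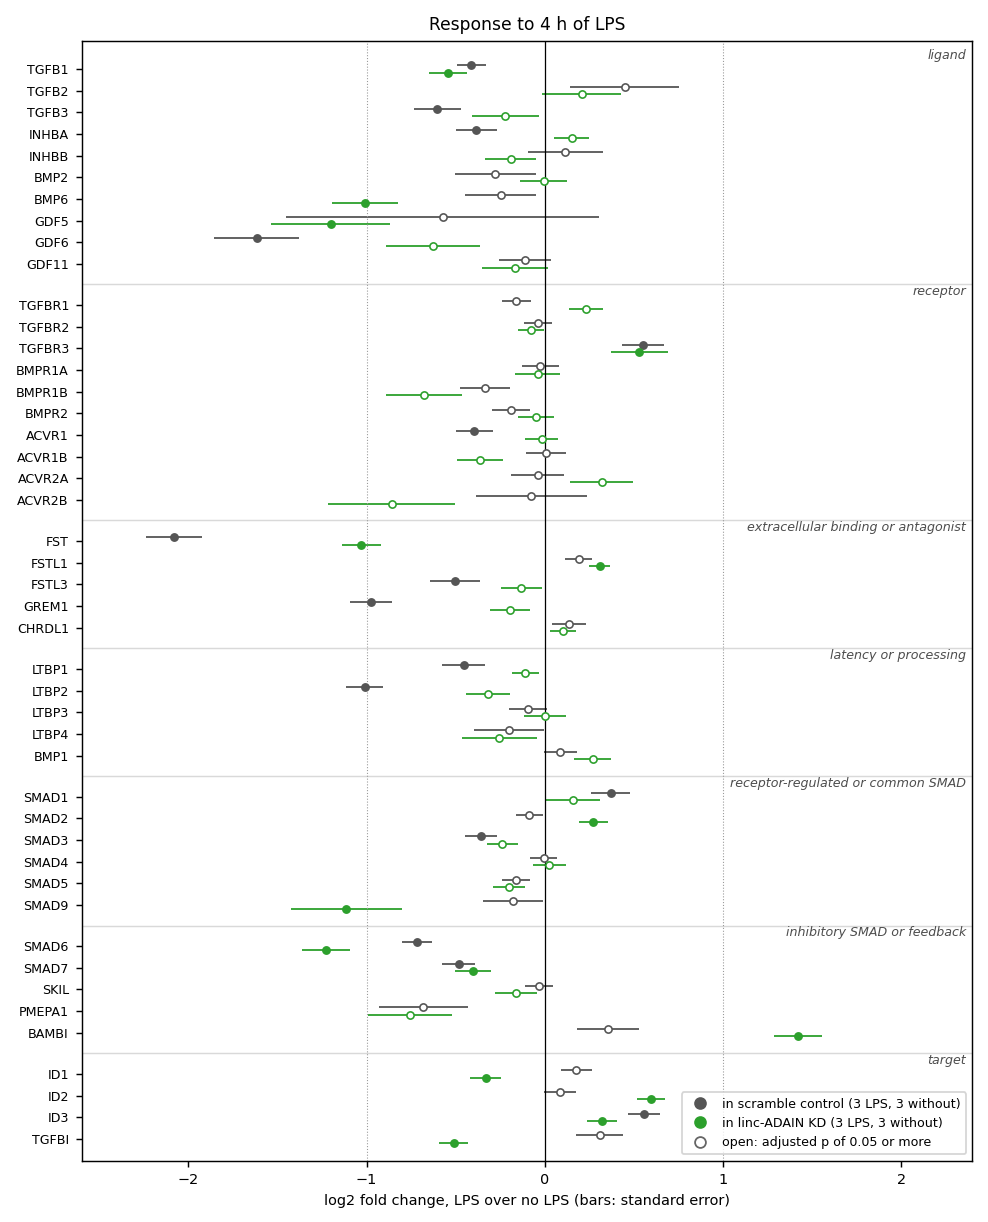
Log2 fold change of 4 h of LPS over no LPS for 45 members by role, in scramble (grey) and in KD (green), with bars of 1 standard error and filled points where the adjusted p is under 0.05. FST, GDF6, LTBP2 and GREM1 lie farthest to the left in scramble, and BAMBI lies farthest to the right in KD.

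FST showed the lowest fold change of LPS in scramble cells, from 55.6 to 93.8 CPM down to 16.9 to 18.0 CPM (-2.08, SE 0.157, adjusted p = 5.49e-06). In KD it fell from 110 to 149 CPM down to 63.7 to 67.6 CPM (-1.03, SE 0.109, adjusted p = 1.52e-05). GDF6 fell in scramble by 1.62 (SE 0.237, adjusted p = 0.000747), LTBP2 by 1.01 (SE 0.104, adjusted p = 5.62e-05) and GREM1 by 0.98 (SE 0.119, adjusted p = 0.000203). In KD the LPS differences of these 3 genes were -0.63, -0.32 and -0.19 and were not called (adjusted p = 0.172, 0.127 and 0.326). With the replicate number as a block in the fit, all 3 were called lower (0.0369, 0.0103 and 0.0375). LTBP2 in KD passed in DESeq2 (0.0455), without KD replicate 1 (0.0209), and without a filter on low counts (0.0156).

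SMAD6 fell with LPS in both, by 0.72 in scramble (SE 0.0836, adjusted p = 0.000149) and by 1.23 in KD (SE 0.133, adjusted p = 1.93e-05), and TGFB1 fell by 0.41 (adjusted p = 0.00576) and 0.55 (adjusted p = 0.00322). SMAD7 also fell in both, by 0.48 (adjusted p = 0.00435) and 0.40 (adjusted p = 0.0147), the KD call being lost without KD replicate 3 (0.0655) or KD LPS replicate 3 (0.0782). ID3 rose in both, by 0.56 (adjusted p = 0.00175) and 0.32 (adjusted p = 0.0239), the KD call being lost by library size alone (0.0625) and without KD replicates 1 or 2 or KD LPS replicate 2 (0.0608 to 0.113). TGFBR3 rose in both, by 0.55 (adjusted p = 0.00908, and 0.0508 without scramble replicate 2) and 0.53 (adjusted p = 0.0458). The KD call of TGFBR3 was lost in DESeq2 (0.167), by library size alone (0.0685), under filterByExpr (0.0559) and without KD replicates 2 or 3 or KD LPS replicates 1, 2 or 3 (0.056 to 0.212). Of the members called in 1 arm, INHBA, TGFB3, FSTL3, LTBP1, SMAD3 and ACVR1 were lower with LPS in scramble, by 0.36 to 0.60 on the log2 scale, and SMAD1 was higher by 0.37 (adjusted p = 0.042). Of these, TGFB3 alone kept its call when each library was left out in turn. Each of the others lost it without scramble replicate 2, with adjusted p of 0.0931 for ACVR1, 0.168 for FSTL3, 0.0983 for INHBA, 0.11 for LTBP1, 0.133 for SMAD1 and 0.11 for SMAD3. SMAD1 lost it without any 1 of its 6 libraries (0.0612 to 0.133). Further libraries that ended a call were scramble replicates 1 and 3 and scramble LPS replicate 3 for ACVR1, scramble replicate 1 and scramble LPS replicates 1 and 3 for FSTL3, scramble replicate 1 and scramble LPS replicates 1 and 2 for INHBA, scramble replicate 1 and scramble LPS replicates 2 and 3 for LTBP1, and scramble replicate 3 and scramble LPS replicate 1 for SMAD3, with adjusted p of at most 0.174.

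In KD cells alone BMP6, GDF5, SMAD9 and TGFBI were called lower with LPS and BAMBI, ID2, FSTL1 and SMAD2 higher. BMP6 fell by 1.01 (SE 0.185, adjusted p = 0.00201), from 12.8 to 15.9 CPM down to 5.29 to 7.87 CPM. GDF5 differed by -1.20 (SE 0.334, adjusted p = 0.0307), but not in the fit on all 12 libraries (0.153) nor without KD replicates 2 or 3 or KD LPS replicates 1 or 2 (0.052 to 0.154). SMAD9 differed by -1.11 (SE 0.31, adjusted p = 0.031), lost without KD replicates 2 or 3 or KD LPS replicates 1 or 2 (0.0873 to 0.113). BAMBI rose by 1.42 (SE 0.137, adjusted p = 6.23e-06) and ID2 by 0.60 (SE 0.0767, adjusted p = 0.000101), while TGFBI fell by 0.51 (SE 0.0815, adjusted p = 0.000644). FSTL1 rose by 0.31 (adjusted p = 0.0029). SMAD2 differed by 0.27 (adjusted p = 0.0427), a call lost without any 1 of its 6 libraries (0.058 to 0.151) and by library size alone (0.11). It was also lost with the replicate number as a block (0.0726). ID1 differed by -0.33 (adjusted p = 0.0223), lost without KD replicate 3 (0.0725) or KD LPS replicate 3 (0.114). A call in 1 arm does not show that the arms differ, which the interaction tests.

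The interaction of KD with LPS, the difference between the KD effect with and without LPS over all 12 libraries, was called for 5 of 50 members, 4 higher and 1 lower, against 0.943% higher and 0.332% lower of 17173 genes. By library size alone it was 2 higher and 1 lower. FST had an interaction of 1.06 (SE 0.204, adjusted p = 0.013), since LPS lowered it less in KD than in scramble on the log2 scale, and it kept its call when each library was left out (adjusted p at most 0.0375). BAMBI had an interaction of 1.08 (SE 0.212, adjusted p = 0.0154), with LPS differences of 0.36 in scramble (not called, adjusted p = 0.21) and 1.42 in KD. The call of BAMBI was lost only without KD LPS replicate 3 among the libraries left out (0.0512). TGFBI had -0.81 (SE 0.167, adjusted p = 0.0202), with LPS differences of 0.31 in scramble and -0.51 in KD. The difference in scramble was not called (adjusted p = 0.154), but was with the replicate number as a block (0.00234). The interaction of TGFBI lost its call without scramble replicate 2, KD replicate 1 or KD LPS replicate 2 (0.0515 to 0.069).

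GREM1 had an interaction of 0.79 (SE 0.185, adjusted p = 0.0409) and ID2 of 0.52 (SE 0.118, adjusted p = 0.034). Both were lost by library size alone (0.055 and 0.0561), and GREM1 also under filterByExpr (0.06). GREM1 was also lost without scramble replicates 1 or 2, scramble LPS replicates 2 or 3, KD replicates 1 or 2 or KD LPS replicates 2 or 3 (0.0679 to 0.123). ID2 was lost without any library other than scramble replicate 3 and KD LPS replicate 1 (0.0515 to 0.132). DESeq2 called 10 members in the interaction, among them SMAD6 (-0.50, adjusted p = 0.0241, against 0.0966 in edgeR) and LTBP2 (0.70, adjusted p = 0.00819, against 0.0761 in edgeR). LTBP2 also passed in edgeR without scramble replicate 3 or KD replicate 3 (0.00906 to 0.0399).

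Of 49 further genes of the pathway, 40 were tested without LPS and 6 were higher and 11 lower in KD, and with LPS 11 of 39 were higher and 9 lower. Over all genes 12.1% were higher and 15.1% lower without LPS, and 12.7% and 14.2% with LPS. ITGB8, an integrin subunit that helps to free latent TGF-beta, was at 1.44, 0.970 and 3.14 CPM in scramble and at 23.1, 38.6 and 26.0 CPM in KD (4.00, SE 0.346, adjusted p = 5.23e-06). With LPS ITGB8 was at 8.31, 10.1 and 12 CPM in scramble and at 115, 108 and 128 CPM in KD (3.53, adjusted p = 9.87e-10), and it rose with LPS in both arms (2.48, adjusted p = 0.000627, and 1.999, adjusted p = 5.08e-07). ENG, or endoglin, a co-receptor, fell in KD by 1.36 (adjusted p = 5.98e-06) and 1.42 with LPS (adjusted p = 2.67e-08). DCN, or decorin, a matrix proteoglycan that binds TGF-beta, rose by 0.88 (adjusted p = 0.000151) and 1.31 with LPS (adjusted p = 6.46e-08). With LPS 4 of 38 further genes were higher and 7 lower in scramble, and 6 of 39 were higher and 6 lower in KD, beside 5.9% and 8.38% of all genes in scramble and 5.32% and 6.03% in KD. The calls in scramble numbered 5 without scramble replicate 2 and 7 without scramble LPS replicate 3. TGIF2, a SMAD corepressor, fell with LPS in scramble and in KD (-0.73, adjusted p = 0.0285, and -1.26, adjusted p = 0.00089), and RGMA, a BMP co-receptor, rose in scramble (1.22, adjusted p = 0.0216). The interaction was called for THBS1 (0.73, adjusted p = 0.00945), CRIM1 (0.62, adjusted p = 0.0329) and ZFYVE9 (-0.54, adjusted p = 0.0215), named here after their values were seen, and 1 of the 3 calls was left without scramble replicate 2, KD replicate 1 or KD LPS replicates 2 or 3. With all libraries the calls were 2 higher and 1 lower of 42 tested, beside 0.943% and 0.332% of all genes.

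All 17 textbook TGF-beta target genes were tested. Without LPS 4 were higher and 8 lower in KD, beside 12.1% and 15.1% of all genes. With LPS 5 were higher and 9 lower in KD, beside 12.7% and 14.2%. TAGLN and CNN1, contractile genes, fell in KD without LPS by 1.65 (adjusted p = 1.05e-06) and 2.83 (adjusted p = 6.25e-06), and POSTN, or periostin, by 1.72 (adjusted p = 2.77e-06). CCN1, a matricellular gene, rose in KD by 0.30 (adjusted p = 0.012) and by 0.76 with LPS (adjusted p = 5.44e-05), and CCN2 rose with LPS by 0.77 (adjusted p = 0.000994). LPS lowered 7 and raised 1 in scramble, beside 8.38% lower and 5.9% higher of all genes. In KD, LPS lowered 9 and raised 2, beside 6.03% and 5.32%. CCN2 differed with LPS by -1.75 (adjusted p = 4.52e-07) in scramble and by -0.82 (adjusted p = 0.00308) in KD. Without KD replicate 1 the calls in KD numbered 6, and without KD LPS replicates 1 or 3 they numbered 7. CCN2 alone was called in the interaction (0.94, adjusted p = 0.0371), where 0 genes of the list were called in 9 of the 12 fits with 1 library left out. Of all genes, 0.943% were called higher in the interaction and 0.332% lower.

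The list of BMP target, bone or cartilage genes held 12 names. The KD comparison without LPS covered 9 of them, of which 3 rose and 3 fell, beside 12.1% higher and 15.1% lower of all genes. The KD comparison with LPS covered 8, of which 3 rose and 2 fell, beside 12.7% and 14.2%. ACAN, the cartilage proteoglycan aggrecan, was at 29, 29 and 22 counts in scramble and at 329, 823 and 468 counts in KD (4.52, SE 0.246, adjusted p = 1.53e-07). ALPL, alkaline phosphatase, rose by 1.60 (adjusted p = 0.00127) and HEY1, a transcriptional repressor, by 1.28 (adjusted p = 0.0402). MSX1 and ATOH8, transcription factors induced by BMPs, fell by 1.21 (adjusted p = 1.73e-06) and 0.79 (adjusted p = 2.91e-05), and with LPS by 1.76 (adjusted p = 3.72e-09) and 1.38 (adjusted p = 3.45e-07). SOX9, the cartilage transcription factor, varied within groups, at 20.3, 16.5 and 0.150 CPM in scramble, 0.204, 19.6 and 0.0703 CPM in scramble with LPS, under 0.03 CPM in KD and 6.71, 0 and 0.0352 CPM in KD with LPS, so its call in KD without LPS (adjusted p = 0.00123) rests on 2 scramble libraries and its call for LPS in KD (adjusted p = 0.0329) on 1 KD library. In scramble, LPS gave 0 calls of 9 genes in edgeR, beside 5.9% higher and 8.38% lower of all genes. Of the 9 genes, 5 had an unadjusted p under 0.05 and 1 was called in DESeq2. In KD, LPS gave 1 higher and 2 lower of 10, beside 5.32% and 6.03% of all genes, and 1 call without KD replicate 1 or KD LPS replicate 1. ATOH8 (-0.58, adjusted p = 0.0456) and MSX1 (-0.54, adjusted p = 0.0302) were called in the interaction, of 10 tested, beside 0.332% of all genes called lower. In the interaction 0 of the list were called without scramble replicates 1 or 2, KD replicate 1 or KD LPS replicates 1 or 3.

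Gene positions bear on some counts. An exon of 21 of the 51 members is overlapped by an exon of a gene on the opposite strand in GENCODE 44, among them GREM1, GDF11, BMP6, GDF5, LTBP2, LTBP3, ID2, TGFB1 and INHBA. The library kit marked strand, but the strand setting of the counting is not given in the sources used here, so reads of these genes and of their antisense partners may not be told apart.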

How the data were processed

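RNA was sequenced from stranded mRNA libraries. The authors assigned reads to GRCh38 transcripts with kallisto 0.44.0 (bcl2fastq 2.19 and DESeq2 1.32.0 are also in the submitters' processing notes) and deposited estimated counts per gene name, not normalized for depth or length. The values are whole numbers, and the annotation release is not given in the sources used here. A row with no gene name, 0.235% to 0.306% of a library, was left out. In R 4.3.3, genes with at least 10 counts over the libraries of a fit were scaled by TMM and tested by edgeR 4.0.16 (quasi-likelihood F test), in 4 group comparisons of 6 libraries and an interaction over 12. The steps were tested on simulated data.

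The members and lists were chosen with earlier results of these data known. Values per library were given for members called at 2-fold or more in a group comparison, or called in the interaction, and for TGFBR3 and BMPR2, chosen after their values were seen. Genes of the 3 added lists were named where called at 2-fold or more and at 50 counts or more per library on average, up to 6 a list, and some of these are not reported here. Alternatives were DESeq2 1.42.0, other scalings and filters, all 12 libraries, a replicate block and each library left out. Lengths and positions come from GENCODE 44, promoters from RefSeq (GRCh38.p14).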

Additional observations from a re-analysis of the deposited data

Results flagged for a closer look

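The KD effect differed between cells with and without LPS for 5 members by the interaction test of edgeR. On the log2 scale the interaction was 1.06 for FST, 0.79 for GREM1, 1.08 for BAMBI, 0.52 for ID2 and -0.81 for TGFBI. For FST the 3 libraries with LPS lay below the 3 without it in both arms. For BAMBI the 3 libraries with LPS lay above the 3 without it in both arms. Its LPS difference in scramble, 0.36, was not called (adjusted p = 0.21). For TGFBI the 3 KD libraries with LPS lay below the 3 without it. Of the 5 calls FST alone held with any 1 library left out, and the members called numbered 2 without scramble replicate 2, KD replicate 1 or KD LPS replicates 2 or 3. Summed adipocyte markers were 699.8 to 1982 CPM in KD and 553.9 to 1254 CPM in KD with LPS, and their part in these interactions was not tested.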

How the results depend on the processing

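Of 135 fold changes of members, 89 kept their direction and their side of the threshold under all alternatives run, as did 67 of the 95 called. Sign changed for 10, of which 0 were called. Members called in the interaction numbered 5, against 3 by library size alone, 9 without the filter on low counts, 10 in DESeq2 and 2 to 7 with 1 library left out. With 1 library left out, those called for LPS numbered 9 to 13 in scramble (16 with all) and 9 to 14 in KD (15 with all). The LPS difference of LTBP3 in KD was -0.0514 by library size alone, -0.00708 under filterByExpr and -0.0766 to 0.13 with libraries left out. The other changes of sign came with 1 library left out: BMP2 -0.12 to 0.0472 and BMP4 -0.20 to 1.17 for LPS in KD, GDF5 -1.04 to 0.49, GDF11 -0.24 to 0.00247 and ID2 -0.0103 to 0.15 for LPS in scramble, GDF6 -0.38 to 0.0386 for KD without LPS, and CHRDL1 -0.0849 to 0.0709, GDF11 -0.16 to 0.0944 and NOG -0.92 to 0.26 for the interaction. Over all genes kept, deviations of same-numbered libraries from their group means hardly correlated (r of -0.045 to 0.062 over 18 pairs, 0 over 0.1). The main tests did not pair these libraries. The check weighs genes of few counts like the others, so it cannot show that the numbers do not pair them. With the replicate block as a term the members called numbered 31, 32, 17, 20 and 5 for KD without LPS, KD with LPS, LPS in scramble, LPS in KD and the interaction, against 31, 28, 16, 15 and 5 without it. In the same order, calls over all genes were 3857, 4636, 3260, 2238 and 231 with the block, against 4411, 4292, 2274, 1835 and 219 without it. Among the fold changes compared, the block added calls for GDF6 in KD with LPS (adjusted p = 0.021), for GDF6 (0.0369), GREM1 (0.0375) and LTBP2 (0.0103) with LPS in KD and for TGFBI with LPS in scramble (0.00234), and ended that of SMAD2 with LPS in KD (0.0726). Over all genes the interaction was called for 219, against 431 without the filter, 475 in DESeq2 and 92 without scramble replicate 2, and LPS in scramble for 2274, against 1187 without scramble replicate 2. The causes of these changes were not tested. Counts under 60 per library limit BMP4, BMP7, CHRD, ID4 and NOG.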
